A study of Mus musculus with 30 samples.

Results

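Nnat, Mcts2, Nap1l5, Zrsr1 and Peg13 are imprinted genes, expressed from the paternal copy, that each lie inside the body of a larger host gene. DNA methylation at these 5 genes was compared with methylation at the annotated ends of their hosts Blcap, H13, Herc3, Commd1 and Trappc9. The set holds the CpGs, both strands summed, with 10 or more reads in every library, either within 2 kb of the RefSeq GRCm38 body of a nested gene or within 1 kb of either end of a host. It comprised 108 of the 416876 CpGs measured at that depth in the whole series, 54 in nested windows and 54 in host windows, and no CpG lay in both kinds of window. Of the 10 genes, 9 had at least 1 such CpG and 8 had at least 3, the number needed for a test of a window. Commd1 had 0 CpGs at its annotated ends and H13 had 1. No host was read at both ends. The CpGs read lay at the start of Blcap, H13 and Herc3 and at the upper annotated end of Trappc9, and the other end of each of these 4 genes had 0.

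Sperm of the cauda epididymis was taken from 30 male C57BL/6J mice, 1 mouse per library, and read by RRBS (reduced representation bisulfite sequencing), in which bisulfite-treated fragments rich in CpGs are sequenced. In the cadmium group, 15 mice had drinking water, purified by reverse osmosis, that held 0.9 ppm cadmium from cadmium chloride, at an average dose of 0.68 mg per kg of body weight. In the vehicle group, 15 mice had the purified water alone. All mice were 7 weeks old initially and were sampled 9 weeks after treatment began, and all were singly housed and fed the same diet with 10% of its energy from fat. Summed coverage was 57856937 to 79777446 per cadmium library and 53591172 to 94090975 per vehicle library. The median coverage of a measured CpG was 46 to 94 reads in the nested windows and 67 to 83 reads in the host windows. The label of sperm was checked at imprinted loci. The ends of H19, which is methylated in sperm, stood at 71.0% ± 6.20 in cadmium mice against 74.5% ± 5.49 in vehicle mice (SD, n = 15 each), over 4 CpGs. The other measured genes of paternally methylated loci stood lower, with the ends of Meg3 at 45.1% in cadmium mice against 44.1% in vehicle mice, and those of Dlk1 and Rasgrf1 under 2% in both groups. These windows cover only the 1 kb around gene ends, and whether they hold the methylation marks of the loci was not checked. The low levels therefore do not give the level of the marks.

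Imprinted genes carry methylation marks laid down in only one of the parental germ lines, and the mark decides which copy is active in the offspring. Mcts2, Nap1l5 and Zrsr1 are retrogenes, copies of X-linked genes that were inserted into introns of their hosts, and Peg13 is a long non-coding RNA. The promoters of the nested genes are marked in the oocyte and unmarked in sperm, so that body cells carry a methylated maternal and an unmethylated paternal copy, while the promoters of the hosts are unmethylated on both copies. In mouse tissues the transcripts of several hosts are affected by the nested gene, as in H13, whose maternal and paternal transcripts end at different sites.

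Promoter sequences are shown to place the measured CpGs of a nested retrogene pair and of a host with 2 annotated starts. They come from RefSeq on GRCm38.p6, run from 250 bases before a start to 50 bases after it, and are written 5′ to 3′ on the gene's own strand. Of the 10 genes, 8 were matched in that table, all but Peg13 and Trappc9. Capitals mark the CpGs that were read in every library. The Mcts2 promoter, chr2:152686898-152687197 on the plus strand, holds 25 CpGs, of which 3 were read, at 14.4% in cadmium mice against 12.3% in vehicle mice. The Zrsr1 promoter, chr11:22971755-22972054 on the plus strand, holds 10 CpGs, of which 2 were read, at 19.4% in cadmium mice against 14.3% in vehicle mice. Commd1 has an inner start, chr11:22972817-22973116 on the minus strand, that lies inside the Zrsr1 body, and 6 of its 17 CpGs were read, at 15.2% in cadmium mice against 12.6% in vehicle mice. The outer Commd1 start, chr11:22982235-22982534 on the minus strand, lies outside Zrsr1, and 6 of its 18 CpGs were read, at 0.228% in cadmium mice against 0.799% in vehicle mice.
Mcts2: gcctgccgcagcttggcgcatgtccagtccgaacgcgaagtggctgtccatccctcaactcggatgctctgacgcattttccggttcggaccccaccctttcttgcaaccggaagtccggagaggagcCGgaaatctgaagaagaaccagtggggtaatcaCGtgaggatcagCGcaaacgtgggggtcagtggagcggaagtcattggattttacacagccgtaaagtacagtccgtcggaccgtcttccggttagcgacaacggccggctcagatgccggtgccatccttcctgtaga
Zrsr1: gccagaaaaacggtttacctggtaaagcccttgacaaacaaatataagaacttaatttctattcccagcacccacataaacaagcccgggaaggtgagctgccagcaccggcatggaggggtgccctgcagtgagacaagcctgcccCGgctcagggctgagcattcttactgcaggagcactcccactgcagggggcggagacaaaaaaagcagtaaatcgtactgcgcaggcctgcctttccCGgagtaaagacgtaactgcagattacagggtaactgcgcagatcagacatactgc
Commd1 inner start: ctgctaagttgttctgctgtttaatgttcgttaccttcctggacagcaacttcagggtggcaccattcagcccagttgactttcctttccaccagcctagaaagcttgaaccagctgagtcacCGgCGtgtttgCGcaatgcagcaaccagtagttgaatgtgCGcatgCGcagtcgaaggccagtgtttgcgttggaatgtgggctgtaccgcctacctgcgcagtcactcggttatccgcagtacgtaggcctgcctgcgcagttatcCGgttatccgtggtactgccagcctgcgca
Commd1 outer start: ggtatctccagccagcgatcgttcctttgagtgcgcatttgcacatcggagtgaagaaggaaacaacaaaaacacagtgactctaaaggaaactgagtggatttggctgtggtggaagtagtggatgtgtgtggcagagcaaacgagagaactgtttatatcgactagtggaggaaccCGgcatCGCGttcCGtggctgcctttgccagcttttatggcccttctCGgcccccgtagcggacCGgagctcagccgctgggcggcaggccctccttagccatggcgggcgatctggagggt

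The hexanucleotide TGCCGC, which in mouse is the sequence bound in methylated form by the imprint-keeping zinc finger protein ZFP57, was searched on both strands of the same promoters. It occurred 2 times in Nap1l5, 1 time each in Mcts2, in Nnat and at the outer Commd1 start, and 0 times at Zrsr1, the inner Commd1 start, Blcap, H13 and Herc3. For Herc3 the promoter searched, chr6:58833450-58833749, lies inside the gene and not at its annotated start at 58831455. The sequence around the 9 Herc3 CpGs that were read, at 58831580 to 58831635, was not searched. Among all 32620 RefSeq promoters, 3811 (11.7%) held it at least 1 time and 503 (1.54%) at least 2 times. The hexanucleotide contains a CpG, and these shares were not matched for CpG number. The median of all promoters was 7 CpGs, against 17 to 25 at the member starts that held the hexanucleotide and 4 to 21 at those that did not. The match is a description of letters and not of binding. The Nap1l5 promoter, chr6:58907077-58907376 on the minus strand, is shown with the hexanucleotide in capitals because it was the only one of the 9 starts that held 2 copies, and none of its CpGs was read in every library.
Nap1l5: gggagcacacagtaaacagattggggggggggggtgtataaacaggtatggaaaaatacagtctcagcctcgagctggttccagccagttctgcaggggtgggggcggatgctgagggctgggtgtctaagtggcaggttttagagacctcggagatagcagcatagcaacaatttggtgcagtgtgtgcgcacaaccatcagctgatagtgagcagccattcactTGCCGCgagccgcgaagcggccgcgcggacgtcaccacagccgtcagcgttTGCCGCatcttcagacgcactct

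The nested windows were partly methylated in sperm and the host ends that were read were almost unmethylated. Methylation of a window is the unweighted mean over its CpGs in a mouse. Over the 30 mice it averaged 18.9% at Nap1l5, 16.8% at Peg13, 16.6% at Nnat, 15.3% at Zrsr1 and 13.4% at Mcts2. These levels differed by less than the SD between mice, which was 10.1 to 13.1 points. Host windows averaged 1.77% at H13, 0.739% at Blcap, 0.423% at Trappc9 and 0.400% at Herc3. At single CpGs the 54 means ran from 7.14% to 30.7% (median 14.2%) in nested windows and from 0% to 2.32% (median 0.246%) in host windows, against a median of 1.39% over all 416876 CpGs. Of all values of a CpG in a mouse, 34.8% were 0% and 5.68% were over 50% in nested windows, while 91.5% were 0% and 0% were over 50% in host windows. The libraries carried methylation at loci described as unmarked in sperm, and the part of DNA from other cells in it was not tested.

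**Figure D1:**
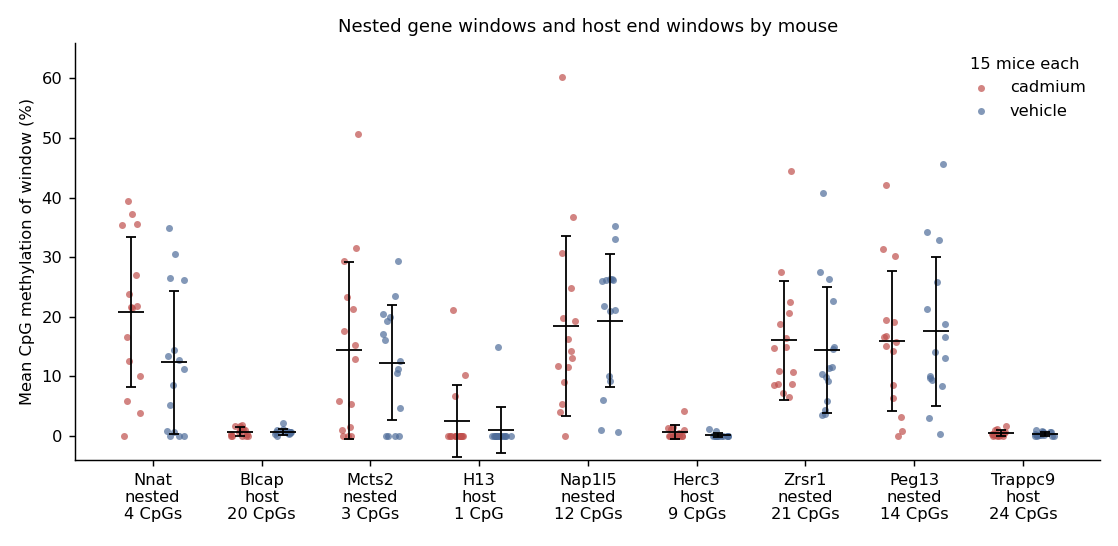
Methylation of each window (y axis, percent) in each mouse, for 5 nested genes and the 4 hosts with a measured CpG (x axis). Points are mice, cadmium left and vehicle right, and bars are the mean with the SD of 15 mice. Nested windows spread from 0% to 60.2%, and host windows with 3 or more CpGs reach at most 4.13%.

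Tests between groups used a logistic model of methylated and unmethylated reads with a dispersion term, with p values adjusted by the Benjamini-Hochberg method over every annotated gene window of the same kind. A window passed at an adjusted p under 0.05. This model tests the reads summed over each group, while the printed means, SDs and intervals weigh every mouse alike. None of the 5 nested windows passed, and over all 19783 windows of gene bodies plus 2 kb 0 passed (0%). At an unadjusted p under 0.05, 0 nested windows stood, against 923 (4.67%) of all such windows, or 635 (3.21%) by limma, which also passed 0. At 4 of the 5 genes, all but Nnat, the 95% interval of the difference ran at least 6 points to either side of 0.

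Mcts2, a copy of the X-linked Mcts1 gene that encodes a protein of translation re-initiation, lies on chromosome 2 from 152687148 to 152687946, within H13. Its 3 CpGs lay 77 to 122 bp before its start. Methylation ran from 0% through a median of 12.9% to 50.6% in cadmium mice, and from 0% through a median of 12.5% to 29.4% in vehicle mice. The groups overlapped almost fully, with cadmium mouse 10 the highest. The mean was 14.4% ± 14.9 in cadmium mice against 12.3% ± 9.63 in vehicle mice (SD, n = 15 each), a difference of 2.03 points with a 95% interval of -7.33 to 11.4 (p = 0.365, adjusted p = 0.99994). The CpG 122 bp before the start was highest, at 16.0% in cadmium mice against 13.8% in vehicle mice, and had the smallest p of the 3 (p = 0.347), and the CpG 77 bp before it was lowest, at 13.2% in cadmium mice against 11.6% in vehicle mice. The window was read at 0% in 3 cadmium and 4 vehicle mice, and at their 22 to 89 reads per CpG a reading of 0 allows a level of up to 3.37% to 13.6%.

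Nap1l5, a retrogene of the nucleosome assembly protein family, lies on chromosome 6 from 58905233 to 58907126, within Herc3. Its 12 CpGs lay 249 to 402 bp after its start. Methylation ran from 0% through a median of 14.3% to 60.2% in cadmium mice, and from 0.621% through a median of 21.9% to 35.3% in vehicle mice. Over 20% stood 4 cadmium and 10 vehicle mice, yet the mean was 18.5% ± 15.2 in cadmium mice against 19.4% ± 11.1 in vehicle mice (SD, n = 15 each), with cadmium mouse 10 at the top. The difference was -0.894 points with a 95% interval of -10.8 to 9.06 (p = 0.959, adjusted p = 0.99994).

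The Nap1l5 CpGs fell into 2 clusters, 5 CpGs at 358 to 402 bp and 7 CpGs at 249 to 296 bp after the start. The 5 farther ones stood at 32.1% ± 22.4 in cadmium mice against 24.6% ± 22.3 in vehicle mice, and the 7 nearer ones stood at 8.75% ± 17.3 in cadmium mice against 15.6% ± 18.0 in vehicle mice (SD, n = 15 each). Their intervals of the difference were -9.22 to 24.2 and -20.1 to 6.31 points, and both held 0. Across the 30 mice the clusters showed no passing relation (r = -0.113, permutation p = 0.553; rho = -0.218, p = 0.245). The r was -0.00642 without the 2 mice farthest from the median of the first cluster, 0.222 within cadmium mice and -0.373 within vehicle mice. In the nearer cluster, 16 to 19 of the 30 mice were at 0% at each CpG and 2 or 3 were over 50%, at a median of 41 reads. The CpG with the highest mean, 368 bp after the start, stood at 35.4% in cadmium mice against 26.0% in vehicle mice, and the lowest, at 276 bp, stood at 8.09% in cadmium mice against 13.8% in vehicle mice. The smallest p was at 296 bp, with 7.68% in cadmium mice against 17.2% in vehicle mice (p = 0.0935, adjusted p = 0.539).

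Zrsr1, a copy of the X-linked Zrsr2 gene that encodes a splicing factor related to the small U2AF subunit, lies on chromosome 11 from 22972005 to 22976496, within Commd1. Its 21 CpGs ran from 103 bp before the start to 2111 bp after it, the longest stretch read in the 5 windows. Methylation ran from 6.54% through a median of 14.8% to 44.4% in cadmium mice, and from 3.49% through a median of 11.5% to 40.8% in vehicle mice. It was the only nested window with 0 mice at 0%. It also held the most CpGs of the 5 windows, so a reading of 0 at all of them was less likely. The mean was 16.1% ± 9.99 in cadmium mice against 14.5% ± 10.6 in vehicle mice (SD, n = 15 each), a difference of 1.64 points with a 95% interval of -6.06 to 9.33 (p = 0.835, adjusted p = 0.99994).

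Along Zrsr1 the level was not even. The lowest CpG, 197 bp after the start at chromosome 11 position 22972202, averaged 7.14% over all mice, and the highest, 1929 bp after the start at position 22973934, averaged 28.2%. That highest CpG stood at 40.7% in cadmium mice against 15.8% in vehicle mice and had the smallest p of the 54 nested CpGs (p = 0.0242), but its adjusted p over all CpGs was 0.440. The next CpG, 1942 bp after the start, stood at 25.2% in cadmium mice against 22.5% in vehicle mice (p = 0.861). The CpG 103 bp before the start stood at 27.8% in cadmium mice against 10.5% in vehicle mice (p = 0.0350, adjusted p = 0.463), while the next one, 6 bp before the start, stood at 10.9% in cadmium mice against 18.1% in vehicle mice. Reads of a retrogene body can resemble those of its X-linked relative, and the treatment of such reads in the alignment is not stated in the labels.

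Nnat encodes neuronatin, a small membrane protein of the developing brain, and lies on chromosome 2 from 157560078 to 157562525, within Blcap. Its 4 CpGs lay 196 to 228 bp after its start. Methylation ran from 0% through a median of 21.7% to 39.4% in cadmium mice, and from 0% through a median of 11.3% to 34.9% in vehicle mice. Over 20% stood 9 cadmium and 4 vehicle mice, and the ranges overlapped. The mean was 20.8% ± 12.7 in cadmium mice against 12.4% ± 12.02 in vehicle mice (SD, n = 15 each), the widest gap of the 5 nested windows at 8.46 points, with a 95% interval of -0.773 to 17.7. It did not pass (p = 0.0516, adjusted p = 0.99994). With 5 reads in every library in place of 10, 6 CpGs averaged 22.7% ± 9.59 in cadmium mice against 12.6% ± 11.4 in vehicle mice (SD, n = 15 each), a difference of 10.1 points whose 95% interval of 2.18 to 18.0 left out 0, and which did not pass over all windows either (logistic model, adjusted p = 1). With the mitochondrial share of coverage, described below, as a covariate in limma, the difference was 7.73 points (adjusted p = 0.999). All 4 CpGs stood higher in cadmium mice, by 5.52 to 10.7 points, and since they lie on the same reads they count as 1 observation. The highest, 221 bp after the start, stood at 22.7% in cadmium mice against 12.6% in vehicle mice, and the lowest, at 226 bp, stood at 18.2% in cadmium mice against 12.7% in vehicle mice. The smallest p was at 196 bp, with 22.0% in cadmium mice against 11.4% in vehicle mice (p = 0.0402, adjusted p = 0.471).

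Peg13 lies on chromosome 15 from 72805602 to 72810324, within Trappc9, and the annotation used gives no strand for it. Its 14 CpGs lay in the upper part of the gene, from 72809700 to 72810541. Methylation ran from 0% through a median of 15.8% to 42.1% in cadmium mice, and from 0.346% through a median of 14.1% to 45.6% in vehicle mice. The mean was 16.0% ± 11.8 in cadmium mice against 17.6% ± 12.5 in vehicle mice (SD, n = 15 each), a difference of -1.57 points with a 95% interval of -10.7 to 7.52 (p = 0.826, adjusted p = 0.99994). The reads that this p tests went the other way, with 20.2% methylated in the cadmium group against 19.2% in the vehicle group. The levels overlapped throughout. The lowest CpG, at 72809821, averaged 8.87% and the highest, at 72810540 beyond the end of the gene, averaged 23.2% over all mice. The lowest one also had the smallest p, with 10.7% in cadmium mice against 7.08% in vehicle mice (p = 0.107, adjusted p = 0.553).

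**Figure D2:**
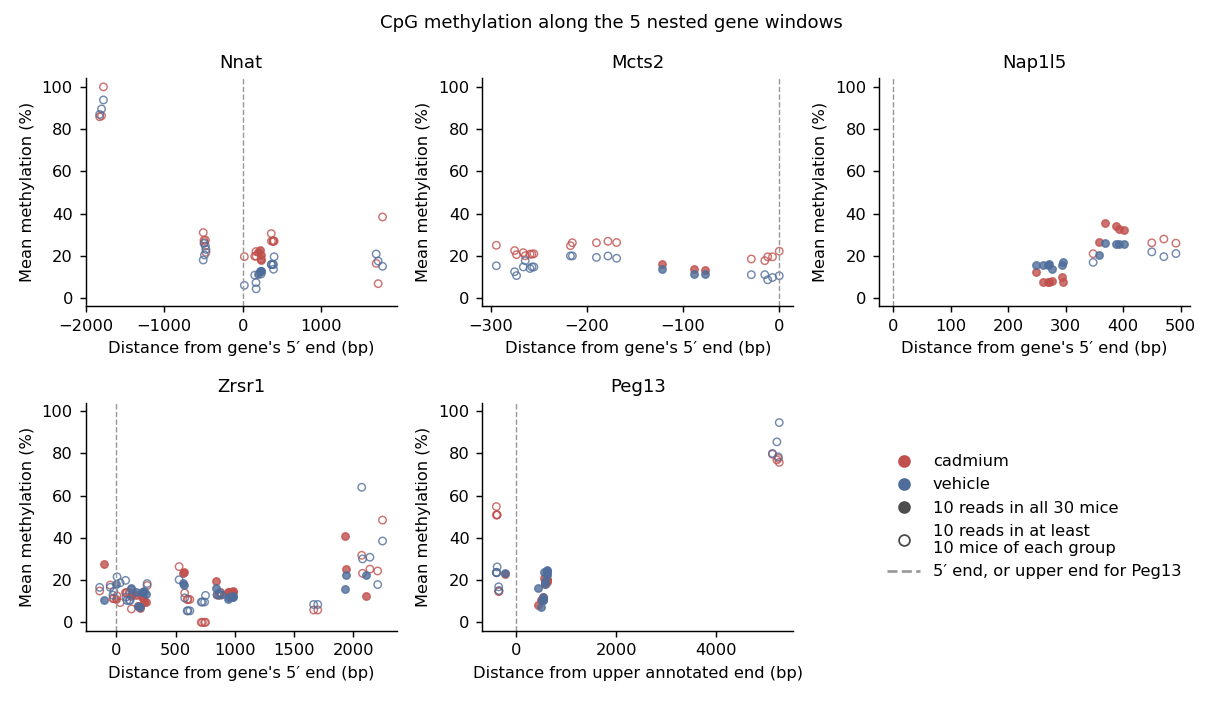
Mean methylation of single CpGs (y axis, percent) by distance from the start of each nested gene, or from the upper annotated end for Peg13 (x axis, bp), cadmium and vehicle. Filled points had 10 reads in all 30 mice and open points in 10 or more mice per group, and the open points far upstream of Nnat and beyond the lower end of Peg13 stand at 75.8% to 100%.

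A wider set of CpGs, with 10 reads in 10 or more mice per group, was examined after the data had been seen and reached farther along the genes, with gaps in which no CpG was read. Around the Nnat start, 19 CpGs within 500 bp had a mean of 23.7% in cadmium mice against 14.7% in vehicle mice. Upstream of these, the CpG at -504 bp from the start stood at 31.0% in cadmium mice against 18.0% in vehicle mice, and the 3 CpGs at -1823 to -1775 bp stood at 85.8% to 100% in cadmium mice against 87.0% to 93.8% in vehicle mice. No CpG was read between them. Over 1500 bp after the Nnat start, 3 CpGs stood at 20.5% in cadmium mice against 17.8% in vehicle mice. At Mcts2, 21 CpGs within 500 bp of the start stood at 21.1% in cadmium mice against 14.3% in vehicle mice, and at Nap1l5, 16 such CpGs stood at 20.2% in cadmium mice against 19.5% in vehicle mice. At Peg13, 8 CpGs within 500 bp of the upper end stood at 33.5% in cadmium mice against 21.03% in vehicle mice, and 12 CpGs between 500 and 1500 bp inside it stood at 16.1% in cadmium mice against 17.2% in vehicle mice. The 4 CpGs beyond the lower end of Peg13, outside its body, stood at 77.5% in cadmium mice against 84.6% in vehicle mice. The Zrsr1 CpGs over 1500 bp after the start, 10 in number, stood at 24.3% in cadmium mice against 25.9% in vehicle mice, the 22 between 500 and 1500 bp stood at 12.6% in cadmium mice against 12.2% in vehicle mice, and the 23 within 500 bp stood at 12.7% in cadmium mice against 14.3% in vehicle mice. Not every mouse contributes to each of these CpGs, so group means over them mix different mice.

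The single CpGs of the nested windows showed no change past the threshold. Of 54, 30 were higher and 24 lower in cadmium mice. None passed, where 7 of all 416876 CpGs did (0.00168%). At an unadjusted p under 0.05 stood 4 (7.41%), against 10.3% of all CpGs. By limma, 3 of the nested CpGs had such a p, against 1.74% of all CpGs, and 0 of all CpGs passed.

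The single ends read in the hosts with 3 or more CpGs were near 0% in every mouse. Blcap, whose product is a small protein linked to growth control, had 20 CpGs and stood at 0.756% ± 0.710 in cadmium mice against 0.722% ± 0.483 in vehicle mice (SD, n = 15 each; p = 0.09996, adjusted p = 0.917). The reads that this p tests went the other way, with 0.673% methylated in the cadmium group against 1.08% in the vehicle group. On the mouse means limma gave p = 0.879 for Blcap. Herc3, a ubiquitin ligase gene, had 9 CpGs and stood at 0.651% ± 1.123 in cadmium mice against 0.149% ± 0.376 in vehicle mice (SD, n = 15 each; p = 0.106, adjusted p = 0.927). Trappc9, a gene of the TRAPP vesicle tethering complex, had 24 CpGs and stood at 0.460% ± 0.492 in cadmium mice against 0.385% ± 0.354 in vehicle mice (SD, n = 15 each; p = 0.482, adjusted p = 0.998). The highest mouse value of these 3 hosts was 4.13%, in cadmium mouse 12 at Herc3, and the groups overlapped at each host. The single H13 CpG, in the gene of a signal peptide peptidase, was at 0% in 12 cadmium and 14 vehicle mice. It was not tested as a window, and as a single CpG it had p = 0.662 in the logistic model. Its highest values were 21.2% in cadmium mouse 5 and 14.9% in vehicle mouse 12.

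No host window passed, and of 14503 windows at both gene ends 0 passed (0%). At an unadjusted p under 0.05 stood 0 of the 3 hosts, against 807 (5.56%) of all such windows, or 586 (4.04%) by limma, which also passed 0. Of the 54 host CpGs, 23 were higher, 17 lower and 14 equal in cadmium mice. At an unadjusted p under 0.05 stood 8 (14.8%), against 10.3% of all CpGs, and 0 by limma. The highest CpGs stood at 1.27% in cadmium mice against 3.37% in vehicle mice in Blcap, at 2.37% in cadmium mice against 0.589% in vehicle mice in Herc3, and at 0.706% in cadmium mice against 2.10% in vehicle mice in Trappc9. The smallest p of a Blcap CpG was 0.0111 (adjusted p = 0.390) and that of a Herc3 CpG 0.0273 (adjusted p = 0.449). The smallest of all 54 was at a Trappc9 CpG at chromosome 15 position 73061123, at 0.168% in cadmium mice against 0% in vehicle mice (p = 0.00732, adjusted p = 0.362).

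Commd1, which encodes a regulator of copper export and of NF-kB, was read at the starts of the promoter table instead of its annotated ends, a choice made after the data were seen. Within 1 kb of the outer start, 2255 bp inside the annotated end, 6 CpGs stood at 0.228% ± 0.497 in cadmium mice against 0.799% ± 1.56 in vehicle mice (SD, n = 15 each). Within 1 kb of the inner start, 18 CpGs stood at 14.4% ± 9.91 in cadmium mice against 13.5% ± 11.8 in vehicle mice, and all 18 belong to the Zrsr1 window. The inner value is therefore not a measurement separate from Zrsr1.

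CpGs of the host bodies away from both windows were mostly methylated. In H13, 7 such CpGs stood at 74.6% ± 13.6 in cadmium mice against 74.6% ± 11.9 in vehicle mice (SD, n = 15 each). In Herc3, 3 stood at 97.7% ± 3.50 in cadmium mice against 97.6% ± 2.96 in vehicle mice. In Trappc9, 42 stood at 84.5% ± 6.10 in cadmium mice against 84.9% ± 7.71 in vehicle mice, and 28 of these averaged over 80%. In H13, Herc3 and Trappc9 the nested window averaged above the host end that was read and below the host body. The H13 end rests on 1 CpG. Blcap had 0 CpGs outside the windows, and the 6 of Commd1 were those of its outer start.

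Within a mouse, the nested window was usually above its host. The difference was 18.5 ± 13.3 points (SD, n = 30) between Nap1l5 and Herc3, with the nested gene higher in 29 of 30 mice. It was 16.4 ± 12.1 points between Peg13 and Trappc9 (28 of 30 mice), 15.9 ± 12.8 points between Nnat and Blcap (24 of 30 mice), and 11.6 ± 12.9 points between Mcts2 and the single H13 CpG (21 of 30 mice, with 7 equal). Averaged over the 5 nested windows, mice stood between 7.40% and 36.4% in the cadmium group and between 4.00% and 32.9% in the vehicle group. Averaged over the 3 tested hosts, they stood between 0.0218% and 1.64% in the cadmium group and between 0.127% and 0.940% in the vehicle group.

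A gene lying inside another gene was often more methylated than the ends of its host. Among 759 annotated gene-in-gene pairs with 3 or more CpGs in both windows, formed by 715 nested genes and 586 hosts, the median difference was 52.1 points (interquartile range 5.61 to 84.4). In 537 pairs (70.8%) the nested window was higher by 10 points or more, and in 541 (71.3%) it was higher in 28 or more of the 30 mice. The 3 tested pairs of imprinted genes lay below that median, with 65.0% to 67.9% of pairs at or above them. A host under 2% together with a nested window of 10 to 30% was found in 63 pairs (8.30%), the 3 imprinted pairs included. The widest differences were 98.5 points for Gm39807 in Gtdc1, 98.1 for Gm42226 in AI506816 and 97.7 for Gm46971 in Fancd2, and in the other direction -97.0 for Gm52834 in Stard13, -93.6 for Gpr146 in 3110082I17Rik and -89.3 for Aqp2 in Gm34765.

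**Figure D3:**
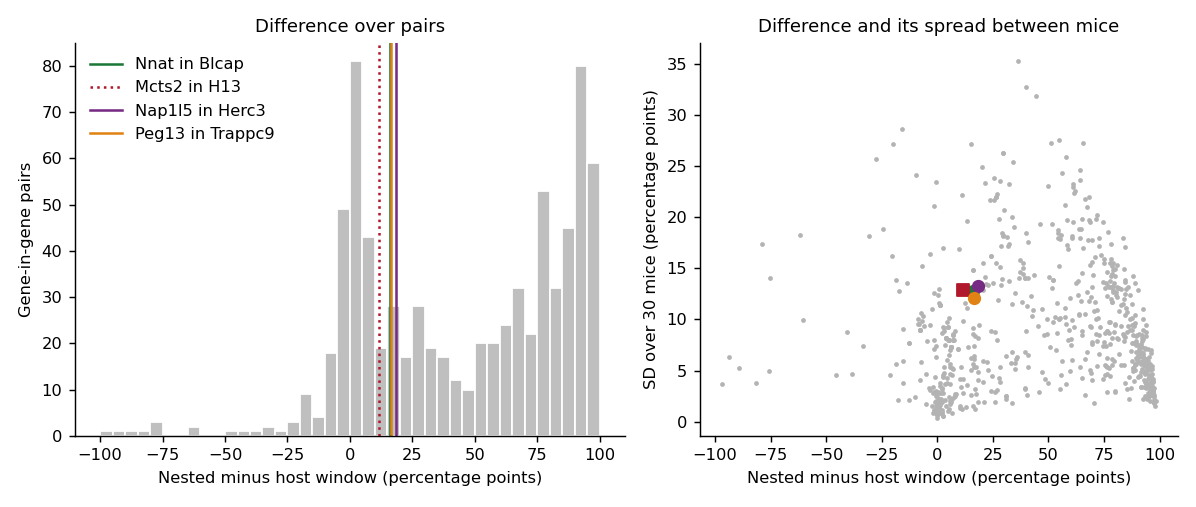
Left, number of gene-in-gene pairs (y axis) by nested minus host methylation (x axis, percentage points), with lines at the imprinted pairs, dotted where the host has 1 CpG. Right, the same difference against its SD over 30 mice (y axis, percentage points), grey for the 759 pairs and coloured for the imprinted ones (the square has 1 host CpG), which lie together at 11.6 to 18.5 points with an SD of 12.1 to 13.3.

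Cadmium did not shift the difference between nested gene and host past the threshold. For Nnat and Blcap it was 20.1 ± 12.5 points in cadmium mice against 11.6 ± 12.1 in vehicle mice (SD, n = 15 each), 8.42 points apart with a 95% interval of -0.772 to 17.6 (limma p = 0.0649, adjusted p = 0.994). For Nap1l5 and Herc3 the groups were -1.40 points apart and for Peg13 and Trappc9 -1.64 points apart (limma adjusted p = 0.994 for both). None of the 759 pairs passed (0%), and 22 (2.90%) had an unadjusted p under 0.05.

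The spread between mice was wide for windows of this level. The nested windows had an SD over 30 mice of 10.1 to 13.1 points. Among all 2531 body windows at 10 to 30% with at most 21 CpGs, the most that a nested window had, the median SD was 2.89 points (interquartile range 1.57 to 6.18) and 13.04% had an SD of 10 points or more. Among the 1071 end windows of that level and size the median was 6.52 points (interquartile range 2.49 to 11.6) and 31.5% had 10 points or more. These classes match the nested windows in level and CpG number only in part, and depth was not matched.

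High and low mice were partly the same from gene to gene. Vehicle mouse 4 stood over 20% in all 5 nested windows, between 26.1% and 34.9%. Cadmium mice 13 and 14 and vehicle mice 12 and 13 stood over 20% in 4 of the 5, while 6 of the 30 mice, 3 of each group, did so in 0. In 15 of 30 mice, 8 cadmium and 7 vehicle, every nested window was above each of the 3 tested hosts. Among the 10 relations between nested windows across the 30 mice, r was above 0 in 10 and ran from 0.128 to 0.566.

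**Figure D4:**
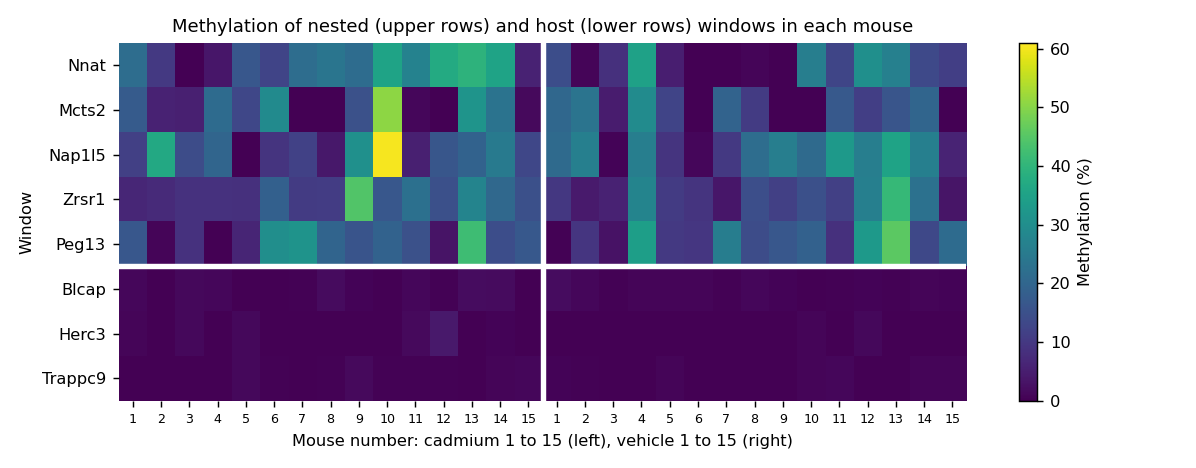
Methylation (colour, percent) of the 5 nested windows (upper rows) and 3 host windows (lower rows) in each mouse (columns, cadmium 1 to 15 left and vehicle 1 to 15 right). Some mice, such as cadmium mouse 13 and vehicle mice 4 and 13, are bright in most nested rows, and the host rows stay dark in every mouse.

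Of these relations, the tightest by a test over all body windows tied Zrsr1, Nnat and Peg13. Zrsr1 and Peg13 had r = 0.551 (permutation p = 0.00179; rho = 0.469, p = 0.00971), with r = 0.554 without the 2 mice farthest from the median of the first gene, 0.365 within cadmium and 0.732 within vehicle mice. Nnat and Zrsr1 had r = 0.558 (permutation p = 0.00102; rho = 0.632, p = 0.00024), with r = 0.558 without 2 mice, 0.395 within cadmium and 0.736 within vehicle mice. Nnat and Peg13 had r = 0.444 (permutation p = 0.0141; rho = 0.396, p = 0.0311), with r = 0.471 without 2 mice, 0.390 within cadmium and 0.602 within vehicle mice. In limma slopes over all other body windows, adjusted over all of them, these 3 relations gave adjusted p values of 0.00560 to 0.0380 in both directions of the fit. The background was broad, since 33.1% of all windows passed on Zrsr1, 25.3% on Peg13 and 16.7% on Nnat.

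Mcts2 and Nap1l5 had the highest r of the 10, 0.566 (permutation p = 0.00173; rho = 0.412, p = 0.0251), but it was 0.356 without the 2 mice farthest from the median, and the slope did not pass over all windows (adjusted p = 0.239 and 0.271). Within groups it was 0.611 in cadmium and 0.492 in vehicle mice. Nap1l5 and Peg13 had the lowest, 0.128 (permutation p = 0.502; rho = 0.0492, p = 0.796). The share of windows that passed was 0.00506% on Nap1l5 and 0% on Mcts2. The other 5 relations had r of 0.243 to 0.395 and adjusted p values of 0.0782 or more over all windows, the smallest between Nap1l5 and Zrsr1.

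Among the 14489 end windows with 3 or more CpGs, those most alike over the 30 mice were named by Pearson's r, as a description. For Zrsr1 they were Mfsd2b (r = 0.891), 4933404K13Rik (0.866) and Ascl3 (0.851), and for Nnat they were Pcdhga3 (0.819), Zfp579 (0.767) and Olfr750 (0.722). For Peg13 they were Gm46603 (0.784), Olfm2 (0.772) and LOC115490388 (0.772). For Nap1l5 they were Esyt1 (0.723), 9530059O14Rik (0.698) and 4930426I24Rik (0.672), whose own levels were under 1.20%, and for Mcts2 they were Gm52786 (0.692), Bin1 (0.675) and Fcrl6 (0.675). All these windows share library and depth with the nested ones.

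At 3 of the 5 nested windows methylation rose with the share of a library's coverage that fell on the mitochondrial genome. That share ran from 0.0127% to 0.0923% (median 0.0673%) in cadmium libraries and from 0.0128% to 0.119% (median 0.0449%) in vehicle libraries. With treatment in the model, a doubling of the share went with 7.47 points more methylation at Zrsr1 (limma adjusted p = 0.000869 over all body windows), 8.69 points at Peg13 (adjusted p = 0.00111) and 7.51 points at Nnat (adjusted p = 0.00854). Nap1l5, at 5.31 points, and Mcts2, at 3.27 points, did not pass (adjusted p = 0.129 and 0.375). Rising slopes passed at 14.1% and falling ones at 20.7% of all body windows, shares that were not matched for level. At the hosts the slopes were 0.0480 points at Herc3, 0.00752 at Trappc9 and -0.0352 at Blcap, none of which passed (adjusted p = 0.939 to 0.982), where 7.78% of end windows rose and 4.13% fell.

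**Figure D5:**
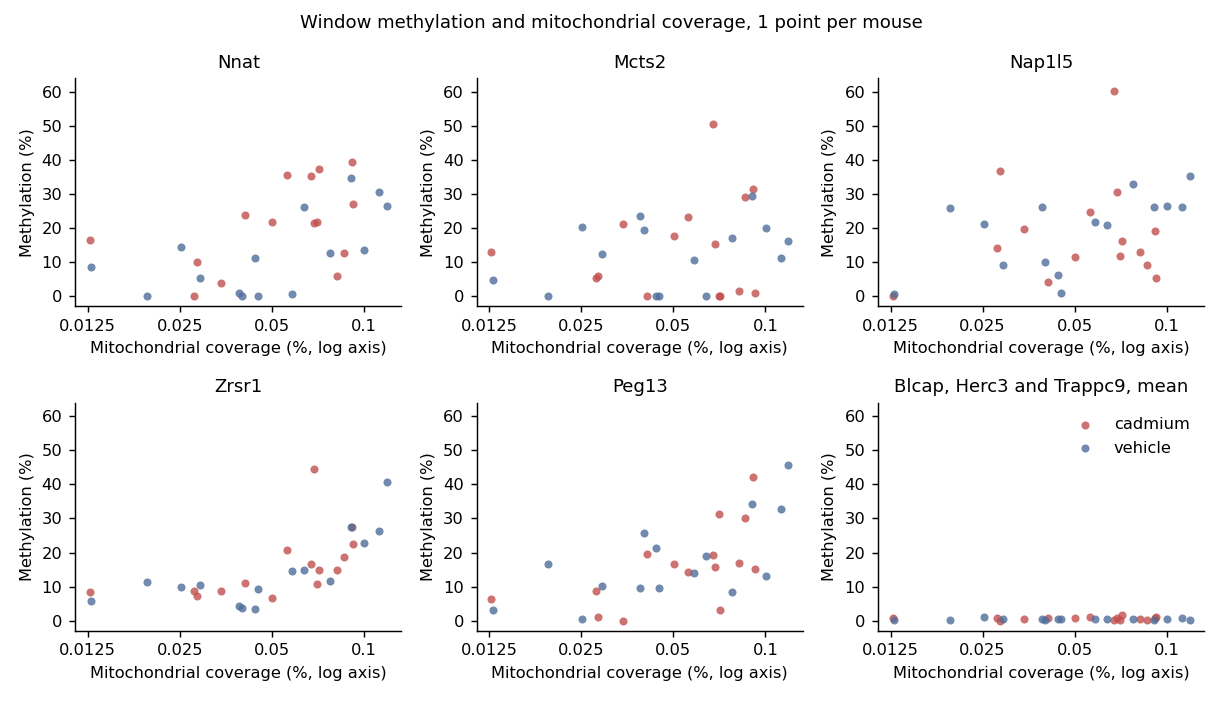
Window methylation (y axis, percent) against the mitochondrial share of coverage (x axis, percent, log axis) in each mouse, for the 5 nested windows and the mean of 3 hosts, cadmium and vehicle. The Zrsr1, Peg13 and Nnat points rise to the right in both groups, with r of 0.526 to 0.644, and the host points reach at most 1.64%.

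As correlations, 8 relations were computed. Zrsr1 had r = 0.644 (permutation p = 0.00019; rho = 0.788, p = 1e-05, the lowest value 100000 permutations allow), Peg13 had r = 0.627 (permutation p = 0.00025; rho = 0.607, p = 0.00059) and Nnat had r = 0.526 (permutation p = 0.00295; rho = 0.577, p = 0.00119). Without vehicle libraries 12 and 13, the farthest from the median share, r was 0.581 at Zrsr1, 0.552 at Peg13 and 0.482 at Nnat. Within groups r was 0.539 in cadmium and 0.728 in vehicle mice at Zrsr1, 0.604 in cadmium and 0.658 in vehicle mice at Peg13, and 0.456 in cadmium and 0.619 in vehicle mice at Nnat. Fitted within cadmium mice, 0 of the 5 slopes passed (adjusted p = 0.0904 or more), and within vehicle mice 4 did, all but that of Mcts2. Whether the slopes differ between the groups was not tested. Nap1l5 had r = 0.351 (permutation p = 0.0570; rho = 0.319, p = 0.0859) and Mcts2 had r = 0.235 (permutation p = 0.212; rho = 0.182, p = 0.330).

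Some other gene lists moved with the same share and others did not. Of 12 germ cell genes, whose promoters are often methylated in body cells, 7 were measured at their ends. Of these, 7 of 7 rose with mitochondrial coverage, where 7.78% of all end windows rose and 4.13% fell. These shares were not matched to the level of the gene lists. Of all end windows, 70.4% averaged under 2%, with a median SD of 0.735 points between mice, which leaves little room for a slope. The list mean was 29.0% ± 11.8 in cadmium mice against 26.0% ± 17.6 in vehicle mice (SD, n = 15 each), with single mice from 10.2% to 50.2% in cadmium mice and from 7.30% to 65.8% in vehicle mice. Mael, of the piRNA pathway, was the highest in cadmium mice, at 40.7% ± 24.0 against 27.3% ± 25.5 in vehicle mice (p = 0.130). It had the steepest slope at 23.2 points per doubling (adjusted p = 6.25e-06). In vehicle mice Sycp1 was the highest, at 32.5% against 32.4% in cadmium mice. Dazl, of germ cell RNA binding, was lowest, at 14.5% in cadmium mice against 12.9% in vehicle mice, and Hormad1, of the meiotic axis, stood at 35.3% in cadmium mice against 29.9% in vehicle mice. Of 20 other genes near maternal germline marks, 11 were measured and 6 rose, among them, named after their slopes were seen, Magel2 (8.99 points, adjusted p = 9.27e-05), Mkrn3 (7.60 points, adjusted p = 0.000148) and Plagl1 (11.4 points, adjusted p = 0.000197). Of 11 genes of epididymal epithelium, 4 were measured, 0 rose or fell, and the list mean was 16.6% ± 3.80 in cadmium mice against 16.8% ± 1.64 in vehicle mice. In that list Epcam was highest, at 45.3% in cadmium mice against 47.4% in vehicle mice, and Krt18 lowest, at 1.01% in cadmium mice against 1.48% in vehicle mice, while Cdh1 and Cldn4 had p = 0.142 and p = 0.492 between groups. Of 8 leukocyte genes, 0 had 3 or more CpGs. Of 6 genes of paternally methylated loci, 4 were measured and 0 rose or fell. The part of other cells or of germ cell stage in the nested levels was not tested.

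Between the groups none of those other genes near maternal germline marks passed. The 11 measured genes have 10 distinct windows, since Peg3 and Usp29 hold the same 4 CpGs, and the 10 averaged 21.4% ± 5.11 in cadmium mice against 19.9% ± 8.54 in vehicle mice (SD, n = 15 each). Counted by gene, with Peg3 and Usp29 both among the higher ones, 7 were higher and 4 lower in cadmium mice, with a median difference of 0.646 points against 0.00164 over all end windows. Fkbp6 had the smallest p (0.148) and the highest level, 80.1% in cadmium mice against 76.4% in vehicle mice, followed in p by Mest, with 31.0% in cadmium mice against 26.0% in vehicle mice, and Inpp5f, with 4.30% in cadmium mice against 4.35% in vehicle mice. Grb10 was lowest, at 0.970% in cadmium mice against 0.783% in vehicle mice. Among paternally methylated loci, the ends of Meg3 stood at 45.1% ± 9.42 in cadmium mice against 44.1% ± 10.8 in vehicle mice, those of Dlk1 at 0.274% in cadmium mice against 0.507% in vehicle mice, and those of Rasgrf1 at 1.38% in cadmium mice against 1.24% in vehicle mice. Of the 4 measured, 2 were higher and 2 lower, with a median difference of -0.0461 points, and 0 passed.

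The measured X-linked relatives of the retrogenes were almost unmethylated. The ends of Zrsr2, the source of Zrsr1, stood at 0.372% ± 0.774 in cadmium mice against 0.504% ± 1.31 in vehicle mice over 11 CpGs (SD, n = 15 each; p = 0.983). The 2 CpGs of Mcts1, the source of Mcts2, stood at 1.10% ± 3.61 in cadmium mice against 0.163% ± 0.527 in vehicle mice. They were not tested as a window. Nap1l2 and Nap1l3 had 0 measured CpGs. Neighbours of the Peg13 locus were also near 0%. The ends of Kcnk9, a potassium channel gene expressed from the maternal copy in brain, stood at 1.09% ± 0.903 in cadmium mice against 0.890% ± 1.10 in vehicle mice, those of Ago2, of small RNA silencing, at 0.782% ± 0.935 in cadmium mice against 0.828% ± 0.491 in vehicle mice, and the single CpG of Chrac1 at 0.503% ± 1.95 in cadmium mice against 0.892% ± 2.36 in vehicle mice.

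Of 10 genes listed as imprint regulators, 3 were measured and 0 passed between groups. Uhrf1, which brings the maintenance methyltransferase to replicated DNA, stood at 7.78% ± 3.59 in cadmium mice against 7.16% ± 3.66 in vehicle mice (SD, n = 15 each), and fell by 2.77 points per doubling of mitochondrial coverage (adjusted p = 0.00104). Kdm1b, a histone demethylase needed for imprints in the oocyte, stood at 1.03% in cadmium mice against 0.679% in vehicle mice, and Ctcf at 0.505% in cadmium mice against 0.339% in vehicle mice.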

How the data were processed

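RRBS libraries of sperm from 15 cadmium and 15 vehicle mice were analysed. Per the submitters' processing notes, the tools were methylKit 1.12.0, Bismark 0.22.3, Trim Galore 0.5.0 and bcl2fastq, with GRCm38 and mm10 named as builds; roles and parameters are not given in the sources used here. Per cytosine, the deposited tables hold a read count and a fraction methylated. Methylated reads were their rounded product, which was within 0.1 of a whole number except at 1 cytosine at most in a library.

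Strands were summed and CpGs with 10 or more reads in all 30 libraries kept. Gene coordinates come from RefSeq on GRCm38, without exons, so intron positions were not checked. Reads summed over windows of 3 or more CpGs were fitted by a logistic model with an F test of treatment and a Pearson dispersion held at 1 or above; slopes and within-mouse differences used limma 3.58.1 (R 4.3.3), and correlations 100000 permutations (SciPy 1.17.1). All tests are two-sided, and intervals of differences are at 95%. The script was tested on simulated data. PCR copies are not separate molecules, so limits from counts cover counting error only. Windows of more than 1 CpG average reads that share molecules.

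Among 210 pairs of libraries of a group, chi-square per CpG averaged 9.93 or more, so none looked like 1 library deposited in duplicate. Genes named were all 10 members and short-list genes, the 3 smallest p and the highest and lowest level of each other list, the highest, lowest, median and smallest-p CpG of a window, the 3 windows most alike and the 3 widest pairs in either direction; medians of windows are given over mice instead. Members and lists were chosen with earlier results of these data known. Alternatives changed coverage minimum and limit, window size, model, block, covariate and weighting.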

Additional observations from a re-analysis of the deposited data

How the results depend on the processing

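Of the compared values, 134 kept their direction and their side of the threshold. Another 15 changed sign, 6 passed newly, 3 no longer passed, and 8 counts of passing items moved. Many of the 134 could not differ. The coverage limit, other window sizes, limma without a covariate and the replicate block left each member's difference at its main value. Without a dispersion term, which ignores the spread between mice, 12201 body windows and 7591 end windows passed. So did Nnat (8.46 points), Mcts2 (2.03), Zrsr1 (1.64), Blcap (0.0343) and Herc3 (0.502), with unchanged differences between mouse means. The model tests the reads summed over a group. By those reads Blcap was lower in cadmium mice (-0.405 points), and Nnat, Mcts2, Zrsr1 and Herc3 were higher. With 10 reads in 10 or more mice per group the differences changed sign at Nap1l5 (0.251), Zrsr1 (-0.371), Peg13 (3.61) and Blcap (-0.0464). Without the 2 libraries farthest in mitochondrial coverage, vehicle 12 and 13, chosen after seeing the data, they did at Nap1l5 (0.854) and Peg13 (1.77). As a share of all reads of the group, also chosen then, they did at Peg13 (0.966) and Blcap (-0.405). With 5 reads Herc3 stood at -0.0190, and with 20 reads Blcap at -0.117 and Trappc9 at -0.0969. None of these sign changes passed the threshold under its own setting. The Nnat difference ran from 7.52 to 10.9 points over its 11 alternatives, several of which kept the main CpGs and mouse means and could not differ. With 5 reads (10.1) its 95% interval of 2.18 to 18.0 left out 0. Nap1l5 was not tested with 20 reads, for want of CpGs.

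Over all CpGs, 7 passed, against 2 with 20 reads and 0 in limma, where 7237 had an unadjusted p under 0.05. Fitted within cadmium mice, the slopes on mitochondrial coverage at Nnat (7.12), Zrsr1 (6.65) and Peg13 (8.77) no longer passed, with fewer mice in the fit, and those of Blcap (0.0824), Herc3 (-0.0847) and Trappc9 (-0.0309) changed sign; 1748 body and 95 end windows passed there, against 6892 and 1728 over all mice. Within vehicle mice the slope of Nap1l5 (7.05) passed and 1058 end windows did. Without the 2 farthest libraries the slope of Herc3 was -0.0147. The cause of these changes was not tested.

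The labels do not say that equal replicate numbers pair mice, and not every same-numbered pair was alike. Of the 15 same-numbered pairs, 7 had deviations correlated above 0.1, in a range of -0.319 to 0.793 and with a mean of 0.160, against -0.00866 for other pairs, and 2 cadmium mice were most like the vehicle mouse of the same number. With the replicate block limma called 0 CpGs, 0 windows and 0 pairs, and the Nnat difference was 8.46 points (adjusted p = 0.999). The mitochondrial share was 0.0127% to 0.0502% in cadmium libraries 1 to 5 and 0.0559% to 0.0923% in cadmium libraries 11 to 15. It was 0.0128% to 0.0906% in vehicle libraries 1 to 5 and 0.0440% to 0.119% in vehicle libraries 11 to 15. Whether this share or the nested levels run with replicate number was not tested.

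At 15 mice a group and an SD of 10.1 to 13.1 points between mice, the 95% intervals of the nested differences were 15.4 to 19.9 points wide, which limits the shifts that could be told from 0. H13 rests on 1 CpG, and Commd1 has 0 at its annotated ends.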
